A study of Mus musculus with 8 samples.

Results

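Steady strongly open regions are the stretches of chromatin that lay widely open in every ATAC-seq library of tumour cDC1s and by nearly the same amount. ATAC-seq cuts accessible DNA with a transposase and sequences the pieces, and a higher count means a more open region. The cells were type 1 conventional dendritic cells (cDC1s), which present captured tumour antigen to CD8 T cells, sorted from B16-OVA tumours (mouse melanoma cells that carry ovalbumin) in wild-type mice. Tumours had grown for 21 days (4 libraries, day 21) or 7 days (4 libraries, day 7), and the comparison asks how the chromatin of these cells differs between a late and an early tumour. Both days share the wild-type genotype, the tumour line and the sort. Whether libraries of the same day stem from different mice is not stated, and p-values then reflect only how far these libraries vary, which may be technical.

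A region was a member when its mean over the 8 libraries was at least 15 CPM (its count scaled by the library's total count) and its highest CPM was at most 1.3 times its lowest. Of 128057 regions, 6517 met both limits. They were 36.8% of the 17722 strongly open regions, as all regions with a mean of at least 15 CPM are called here; the other 11205 varied more. Members were chosen by their level and spread, which are described without a test, and so is their difference between the days, because the ratio limit acts on it. Position, width, gene and sequence were not used.

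Much of the strongly open chromatin of most cell types lies at promoters, the stretches around transcription starts. Promoters of broadly used genes tend to be CpG islands, rich in the pair C followed by G, which are kept free of nucleosomes by factors present in nearly all cells. Enhancers, which lie within or between genes, tend to carry what is particular to a cell type or state.

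The members' sequences could be read at promoters, and 7 promoters are printed from the RefSeq promoter table (GRCm38.p6, the assembly of mm10), each from 250 bases before to 50 after an annotated start, 5′ to 3′ on the gene's strand. They were chosen after their values were seen. Capitals mark matches on either strand to GGGCGG (the GC box that Sp1 binds), CCGGAA (the core of ETS factor sites), the CCAAT box, the E box CACGTG and the palindrome of NRF1 sites, which only the last 3 promoters hold. Sp1 is shown as a strong member with known biology (chr15:102406066-102406365, + strand, 217 CPM). Dnpep is shown as the least variable of the 10 strongest members at starts (chr1:75317588-75317887, − strand, 178 CPM).
Sp1: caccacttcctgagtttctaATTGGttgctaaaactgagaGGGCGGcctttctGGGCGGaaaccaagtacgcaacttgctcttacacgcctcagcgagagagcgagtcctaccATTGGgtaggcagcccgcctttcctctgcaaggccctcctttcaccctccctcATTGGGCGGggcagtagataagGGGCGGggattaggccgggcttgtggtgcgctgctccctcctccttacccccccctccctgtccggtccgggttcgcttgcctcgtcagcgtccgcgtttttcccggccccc
Dnpep: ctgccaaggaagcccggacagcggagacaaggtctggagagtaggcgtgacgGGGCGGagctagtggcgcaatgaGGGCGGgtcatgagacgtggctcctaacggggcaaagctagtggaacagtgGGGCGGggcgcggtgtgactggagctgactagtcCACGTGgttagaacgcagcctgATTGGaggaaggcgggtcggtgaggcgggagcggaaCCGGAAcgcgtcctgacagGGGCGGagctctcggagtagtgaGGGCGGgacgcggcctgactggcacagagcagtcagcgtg
Pnrc1, a nuclear receptor coactivator gene, is shown as a strong member whose printed bases had 48.0% G or C and no GC box (chr4:33248738-33249037, − strand, 172 CPM). Ppef2 is shown as a contrast from outside the members, a strongly open promoter called higher at day 21 (chr5:92256229-92256528, − strand, 25.2 CPM, log2 fold change 0.89) that held none of the marked motifs. It is 1 example, as 53.8% of strongly open promoters called higher held the GC box. The printed bases of Pnrc1 and Ppef2 overlap their regions only in part, so the rest of each region was not read. The annotated start of Ppef2 lies outside its region.
Pnrc1: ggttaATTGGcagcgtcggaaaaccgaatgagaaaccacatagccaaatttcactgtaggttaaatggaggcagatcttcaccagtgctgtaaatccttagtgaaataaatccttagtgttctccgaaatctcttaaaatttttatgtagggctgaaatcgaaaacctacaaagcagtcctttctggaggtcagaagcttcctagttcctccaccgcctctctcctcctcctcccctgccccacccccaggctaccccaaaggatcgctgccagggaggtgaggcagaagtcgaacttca
Ppef2: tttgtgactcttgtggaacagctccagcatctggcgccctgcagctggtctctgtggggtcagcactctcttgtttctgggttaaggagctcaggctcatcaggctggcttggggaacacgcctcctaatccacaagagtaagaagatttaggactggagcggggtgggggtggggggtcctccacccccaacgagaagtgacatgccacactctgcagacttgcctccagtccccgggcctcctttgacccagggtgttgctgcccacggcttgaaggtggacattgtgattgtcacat
The last 3 carry the NRF1 palindrome, the longest run of capitals whose letters read the same on both strands, to which the promoter results return. Etfdh, an electron transfer enzyme of mitochondria, is a member (chr3:79628718-79629017, − strand, 101 CPM). Slx4ip (chr2:136890968-136891267, + strand, 72.0 CPM, log2 fold change −0.19) and Ran (chr5:129019906-129020205, + strand, 59.5 CPM, log2 fold change −0.49) were both called lower at day 21 and are not members. Ran encodes the GTPase that drives nuclear transport.
Etfdh: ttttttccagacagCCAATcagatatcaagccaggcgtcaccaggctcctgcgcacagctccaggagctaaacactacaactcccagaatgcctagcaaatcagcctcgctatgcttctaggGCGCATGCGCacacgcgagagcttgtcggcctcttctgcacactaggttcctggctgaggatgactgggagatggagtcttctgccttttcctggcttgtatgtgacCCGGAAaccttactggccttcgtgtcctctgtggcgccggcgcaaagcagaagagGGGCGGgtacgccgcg
Slx4ip: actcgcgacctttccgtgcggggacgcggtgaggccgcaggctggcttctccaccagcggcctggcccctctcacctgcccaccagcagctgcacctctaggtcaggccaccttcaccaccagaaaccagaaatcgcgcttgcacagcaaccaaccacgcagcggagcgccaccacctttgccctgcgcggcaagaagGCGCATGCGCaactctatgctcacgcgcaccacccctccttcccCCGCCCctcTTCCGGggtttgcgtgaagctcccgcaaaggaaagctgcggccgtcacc
Ran: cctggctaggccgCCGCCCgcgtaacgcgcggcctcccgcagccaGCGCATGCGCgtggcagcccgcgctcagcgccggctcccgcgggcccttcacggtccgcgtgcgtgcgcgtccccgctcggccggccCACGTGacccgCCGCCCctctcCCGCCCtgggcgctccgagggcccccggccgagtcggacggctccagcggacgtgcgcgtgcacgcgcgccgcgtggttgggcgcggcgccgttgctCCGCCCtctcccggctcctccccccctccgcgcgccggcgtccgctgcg

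Members were wide. Their median width was 862 bp (quartiles 632 and 1114), against 714 bp for the other strongly open regions and 364 bp for all regions. Widths ran from 289 bp in the body of Prcp to 3427 bp at LOC108167694, and 6.51% of members were at least 1500 bp wide, against 3.20% of the other strongly open regions. Stronger regions are wider, and the level was part of the rule. Between regions of like level the gap was smaller. Medians were 632 bp for members and 615 bp for others at 15 to 20 CPM, 735 bp for members and 697 bp for others at 20 to 30 CPM, 875 bp for members and 837 bp for others at 30 to 50 CPM, 1015 bp for members and 1009 bp for others at 50 to 100 CPM, and 1198 bp for members and 1174 bp for others at 100 CPM or more. The members covered 10.3% of all region bases. They held 27.5% ± 0.386 of the counts at day 21 and 28.4% ± 0.299 at day 7 (SD, n = 4 each), with library values of 27.1 to 27.9% at day 21 and 28.0 to 28.7% at day 7. These ranges did not overlap. Members at starts carried that difference, at 20.1% ± 0.275 of the counts at day 21 and 21.0% ± 0.289 at day 7, while members elsewhere held 7.40% ± 0.110 at day 21 and 7.27% ± 0.0263 at day 7 (SD, n = 4 each). A count cannot tell the share of cells in which a region is open from how open it is in each cell.

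**Figure D1:**
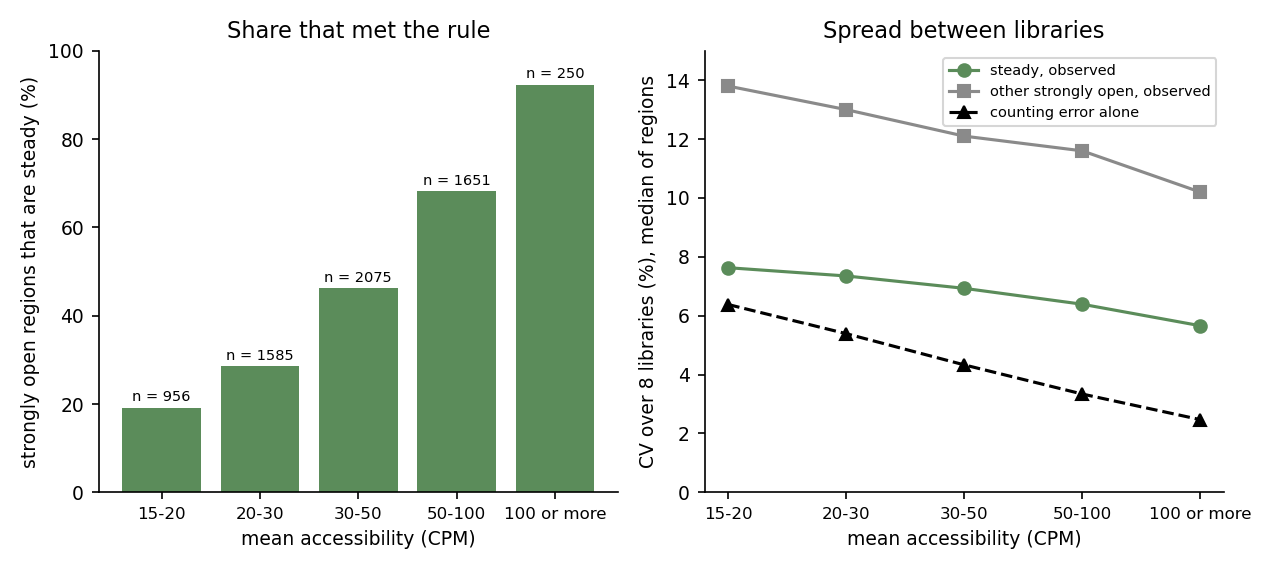
Left, the share of strongly open regions that met the rule in 5 bins of mean CPM, with the number of members above each bar; right, the median coefficient of variation (CV) over the 8 libraries for members (circles) and other strongly open regions (squares), and the CV that counting error alone would give (triangles). The share that met the rule is 19.2% in the lowest bin and 92.3% in the highest. The members' spread stays above the counting error in every bin, if each count is taken as independent.

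Regions met the rule more often the stronger they were. The share was 19.2% at 15 to 20 CPM, 46.2% at 30 to 50 CPM and 92.3% at 100 CPM or more. Members had an observed median CV of 6.98%, where counting error alone would give 4.45%. The other strongly open regions had one of 12.9%, where counting error alone would give 5.52%. The counting error takes each count as independent. It would be larger if both reads of a fragment were counted, which is not stated. The members' CV is also limited by the rule. The day 21 libraries held 14021151 to 27737040 counts, and those of day 7 held 9440223 to 16063736. The deepest library, day 21 replicate 4, held the highest value in 5.57% of members and the lowest in 17.0%. The shallowest, day 7 replicate 2, held the highest in 22.3% and the lowest in 12.7%. Day 21 replicate 1 held the lowest most often, in 17.3%. After all libraries were thinned to the smallest total, 5578 regions met the rule, and 77.7% of the members were among them. When 7 libraries chose the regions, the library left out lay within 1.3 times the mean of the 7, in either direction, for 95.9 to 99.9% of the chosen regions, against 88.0 to 97.9% of all strongly open regions. Day 7 replicate 2 gave the lowest value of both ranges. The ratio limit itself, over all 8 libraries, is stricter. With the left-out library added back, it was met by 80.0% (day 7 replicate 2) to 94.3% (day 21 replicate 4) of the chosen regions.

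Most members lay at transcription starts. A region counted as at a start when it came within 1000 bp of the start of a protein-coding gene, or of either end of a gene whose strand the tables do not give. By that measure 4119 members (63.2%, 95% Wilson interval 62 to 64.4%) were at a start, 3484 of them at a start of known strand and 635 at an end of a gene of unknown strand. Another 1267 (19.4%) lay in gene bodies, 986 (15.1%) between genes and 143 (2.19%) at starts of long noncoding RNA genes. At starts of known strand the start itself lay inside the region in 94.4% of members. Of the members at starts, 685 (16.6%) served at least 2 genes, and at 424 (12.2% of those of known strand) the 2 genes ran in opposite directions from a shared promoter.

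**Figure D2:**
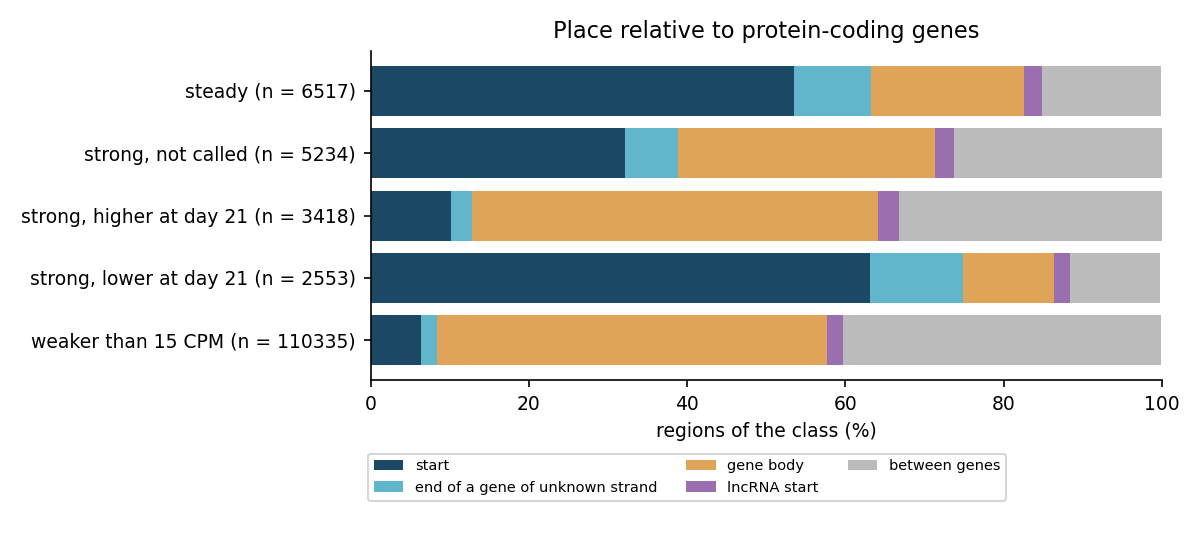
Share of regions (horizontal axis, %) by place relative to protein-coding genes for members (top bar), the other strongly open regions split by edgeR call, and weaker regions. Starts of known strand make up 53.5% of members and 63.1% of the strongly open regions lower at day 21, but 10.2% of those higher at day 21.

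The place of members was closer to that of strongly open regions called lower at day 21 than to that of regions called higher. Starts of known strand made up 53.5% of members. Among the other strongly open regions they made up 10.2% of the 3418 higher at day 21, 63.1% of the 2553 lower at day 21 and 32.2% of the 5234 not called, and they made up 6.41% of weaker regions. Of all strongly open regions, members included, edgeR called 36.4%, 19.9% higher and 16.5% lower. Within each of 5 level bins members were also more often at starts than the others, for example 32.9% of members against 26.2% of others at 15 to 20 CPM, 68.5% against 52.9% at 30 to 50 CPM, and 94.0% against 85.7% at 100 CPM or more. Of all strongly open regions at starts of known strand 48.9% were members, against 25.3% of those in gene bodies and 26.1% of those between genes. Members away from starts lay a median of 18.7 kb from the nearest start, against 19.3 kb for the other strongly open regions. By chromosome, members made up from 30.2% (chromosome 19) to 41.6% (chromosome 8) of strongly open regions, and no strongly open region lay on chromosome Y.

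The strongest members lay at starts of genes with varied roles. LOC108167694, a predicted gene, held the highest at 272 CPM (chr9:124422566-124425993, coordinates as deposited), which was also the widest. Crlf2, a subunit of the receptor for the cytokine TSLP, followed at 266 CPM. Its values were 281, 273, 265 and 252 CPM in the day 21 libraries, against 256, 290, 260 and 249 CPM in the day 7 libraries. The days overlapped, and the log2 fold change of day 21 over day 7 was 0.02 ± 0.05 (SE). The region at Sp1 (chr15:102405145-102406918) had 224, 219, 215 and 200 CPM at day 21, against 214, 228, 219 and 219 CPM at day 7. These overlapped too. Sp4, of the same family of GC-box binding factors, averaged 189 ± 9.01 CPM at day 21 and 203 ± 9.92 CPM at day 7 (SD, n = 4 each). Khsrp (an RNA-binding protein of mRNA decay, sharing its region with Slc25a41), Ube2d3 (a ubiquitin-conjugating enzyme), Gsk3b (a signalling kinase) and Ifrd1 had 206, 184, 181 and 177 CPM over the 8 libraries. Zbtb20, a transcriptional repressor, had 210, 201, 197 and 189 CPM at day 21, against 216, 237, 214 and 211 CPM at day 7. Each day 21 library was below each day 7 library there, by a log2 fold change of −0.14 ± 0.05.

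**Figure D3:**
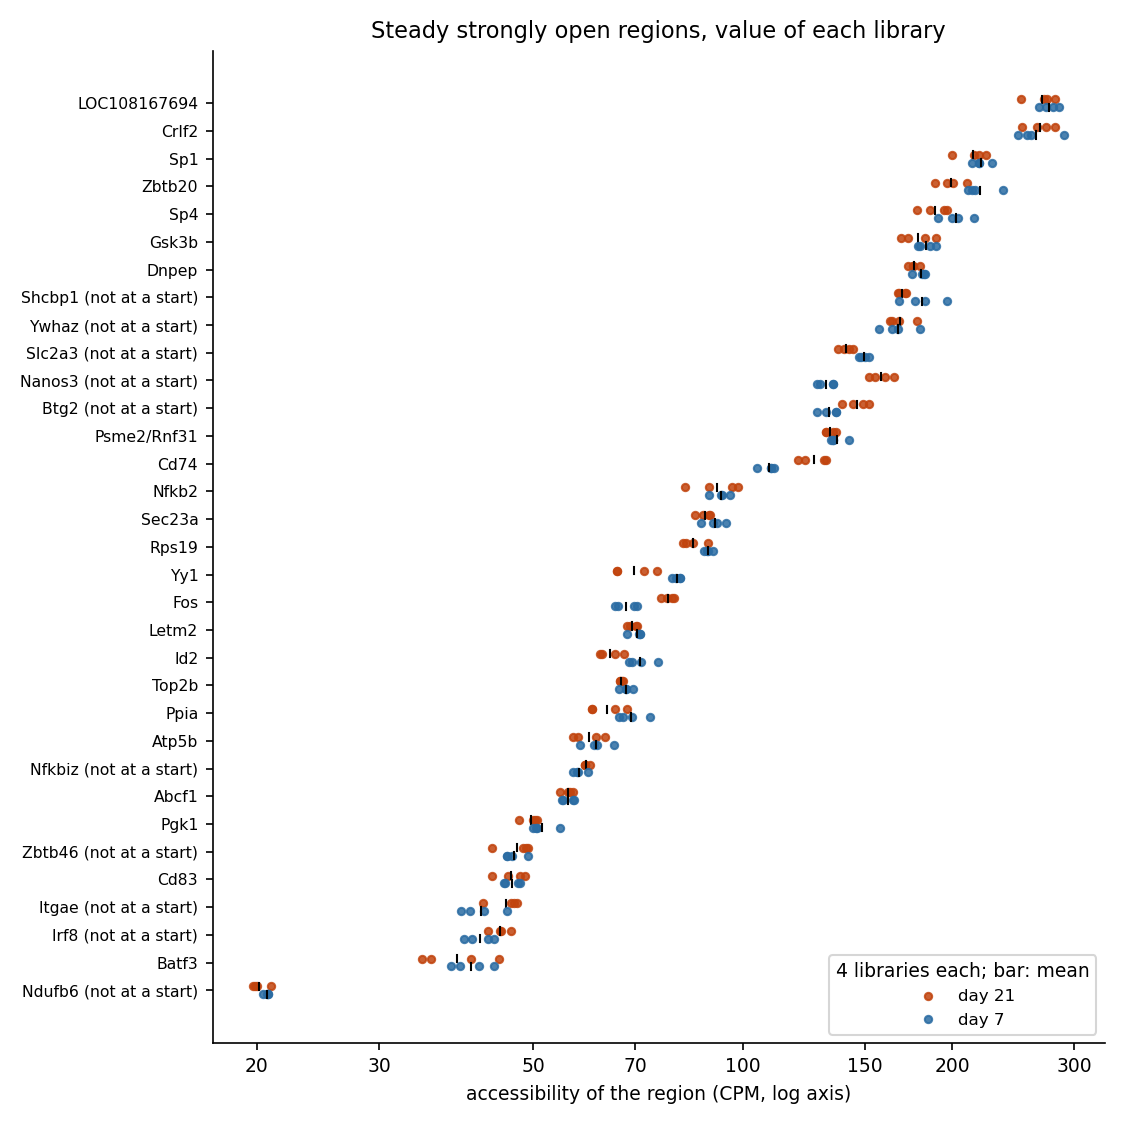
CPM (horizontal log axis) of each of the 4 day 21 libraries and the 4 day 7 libraries for members named in the text, ordered by mean level; vertical bars are means. The points of a region span at most 1.3-fold by the rule, from about 20 CPM near Ndufb6 to 272 CPM on average at LOC108167694, and in some regions, such as those at Cd74 and Yy1, the days form separate groups within that span.

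The least variable members were spread over levels and places. Dnpep, an aminopeptidase, was both strong and flat, with 176, 180, 176 and 173 CPM at day 21, against 183, 175, 181 and 182 CPM at day 7. Top2b, a topoisomerase that relieves DNA torsion at transcribed genes, had 66.7, 67.1, 66.6 and 67.3 CPM at day 21, against 66.4, 69.5, 67.9 and 67.9 CPM at day 7. The days overlapped at both genes. Abcf1, an ATPase linked to translation, averaged 56.0 ± 1.00 CPM at day 21 and 56.1 ± 1.21 CPM at day 7 (SD, n = 4 each). The smallest ratio of all, 1.05, belonged to a region 42 bp from an annotated end of Letm2. Scaf8, which encodes a factor that binds RNA polymerase II, had a like ratio at 88.7 CPM. Outside starts, a region in the body of Nfkbiz, a nuclear regulator of NF-κB target genes, averaged 59.6 ± 0.486 CPM at day 21 and 58.2 ± 1.26 CPM at day 7, and a narrow one of 455 bp lay 8 kb from Ndufb6 at 20.4 CPM.

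Strong members away from starts were fewer. The one in the body of Ywhaz, a 14-3-3 adaptor protein, had 163, 178, 168 and 164 CPM at day 21, against 164, 180, 167 and 157 CPM at day 7. It lay 8.29 kb from an annotated end of Ywhaz, and its days overlapped. The strand of this gene is not given, so only its annotated ends were used and a start inside it would be missed. By contrast, a region 7.85 kb from Slc2a3, the glucose transporter GLUT3, had 144, 142, 140 and 137 CPM at day 21, against 148, 150, 147 and 152 CPM at day 7. Every day 21 value there was below every day 7 value. A region 20.8 kb from Nanos3 had 152, 165, 160 and 155 CPM at day 21, against 135, 135, 128 and 129 CPM at day 7, the reverse order and again without overlap (log2 fold change 0.26 ± 0.05). Another member, 13.7 kb from Btg2 (an inhibitor of cell proliferation) and at the start of a long noncoding RNA gene, averaged 146 ± 5.52 CPM at day 21 and 133 ± 4.05 CPM at day 7 (SD, n = 4 each), and its days did not overlap either. Of these, the Nanos3 region was called (edgeR adjusted p = 8.88e-05). The Slc2a3 region (log2 fold change −0.08 ± 0.05, edgeR adjusted p = 0.271) and the Btg2 region (edgeR adjusted p = 0.0533) were not. The rule thus admits small shifts between the days. Regions near its limits were alike on both sides: at the ratio limit, members at Ralgps1 and 4921524J17Rik spanned 34.7 to 45.1 CPM and 36.6 to 47.6 CPM, and just outside it a region shared by Neurl4 and 2810408A11Rik spanned 32.2 to 41.8 CPM. At the level limit, members near Zfp950, Zfp3 and Nemf and excluded regions at Ikzf1 and Rchy1 all had a mean of 15 CPM to the first decimal.

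Some members passed edgeR's test of day 21 against day 7 despite the limit. Of the 6517, all of which were tested, 473 (7.26%) had an adjusted p under 0.05, against 19.4% of all 121865 tested regions (edgeR quasi-likelihood test, Benjamini-Hochberg adjustment). Of these 106 were higher, against 9.5% of tested regions, and 367 lower, against 9.86%. The rule held every member's log2 fold change between −0.30 and 0.30, so nothing is read from the counts. Of the 4119 members at starts 40 were higher and 343 lower, and of the 2398 elsewhere 66 were higher and 24 lower. Other strongly open regions leaned the same ways. Of all 8501 strongly open regions at starts, 5.14% were others called higher and 22.5% others called lower. Of the 6955 away from starts and within 50 kb of one, 32.1% were others called higher and 7.02% others called lower. The days did not overlap in 1121 members (17.2%), against 20% of tested regions. The count of 473 depended on single libraries: it was 306 without day 21 replicate 2, 253 without day 21 replicate 4, 299 without day 7 replicate 2, 233 without day 7 replicate 3 and 290 without day 7 replicate 4. Mdc1, a DNA damage adaptor, and Ssb, an RNA-binding protein that protects new small RNAs, stood at the lower edge with log2 fold changes of −0.30 ± 0.06 and −0.30 ± 0.08.

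At 4608 genes a member lay at a start. That was 33.5% of the 13765 protein-coding genes with any region at a start and 51.8% of the 8904 with a strongly open one, and these shares are the background for the gene lists that follow. Each list's share of measured genes is given first, then its share of genes with a strongly open start. Stronger regions met the rule more often, and the shares are not matched for level. The median of the strongest start region over measured genes was 8.51 CPM for chemokines and 16.9 CPM for interferon-stimulated genes. It was 17.3 CPM for dendritic cell maturation and migration, 24.5 CPM for mitochondrial ribosome and 63.4 CPM for immediate early genes. Vesicle coat and sorting genes, which carry cargo between the compartments of a cell, had members at 29 of 44 (65.9%, and 70.7% of strongly open), among them Sec23a, Ap2a1 and Copb1. Sec23a, part of the COPII coat, averaged 88.2 ± 2.04 CPM at day 21 and 91.1 ± 3.16 CPM at day 7 (SD, n = 4 each). Autophagy genes had them at 21 of 34 (61.8% and 65.6%), with Uvrag at 124 CPM and Wipi1 at 91.8 CPM, and also Atg5, Becn1 and Ulk1. For tRNA synthetases it was 21 of 37 (56.8% and 60%), for translation factors 24 of 43 (55.8% and 57.1%) and for nuclear pore genes 15 of 28 (53.6% and 55.6%). Cytosolic ribosome genes had members at 38 of 76 (50.0% and 52.8%), and the strongest, Rps19, averaged 84.7 ± 3.17 CPM at day 21 and 89.2 ± 1.07 CPM at day 7 (SD, n = 4 each).

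Other lists of broadly used genes were near or below the share over all genes once only strongly open starts were counted. Cell cycle genes had members at 21 of 42 (50.0% and 51.2%), DNA repair genes at 21 of 45 (46.7% and 50.0%), splicing factors at 25 of 55 (45.5% and 45.5%), proteasome genes at 16 of 36 (44.4% and 51.6%) and respiratory chain genes at 28 of 76 (36.8% and 43.1%). These lists were above 33.5% of measured genes. Beside 51.8% of those with a strongly open start, cell cycle, DNA repair and proteasome genes were near that share. Splicing factors and respiratory chain genes were below it. Atp5b, a subunit of ATP synthase, averaged 60 ± 3.01 CPM at day 21 and 61.6 ± 2.85 CPM at day 7 (SD, n = 4 each). RNA polymerase II and Mediator genes (24 of 72, 33.3% and 38.7%), chromatin regulators (27 of 82, 32.9% and 37.5%) and Zfp genes (93 of 304, 30.6% and 45.6%) were near or below the first share and below the second. Mitochondrial ribosome genes were low at 15 of 76 (19.7% and 26.3%). Of their 61 strongly open start regions 16 were members, 24 others were called lower and 1 higher at day 21. Of all 8501 strongly open regions at starts 48.5% were members, and 22.5% were others called lower and 5.14% others called higher.

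Reference genes used to normalise PCR were mostly not members. Of 19 measured, 5 were (Gusb, Pgk1, Ppia, Ppib and Rplp0; 26.3% and 29.4%), and of the list's 18 strongly open start regions 11 others were called lower and 1 higher at day 21, beside those 22.5% and 5.14% of all. Ppia, the proline isomerase cyclophilin A, had 60.8, 65.6, 68.1 and 60.8 CPM at day 21, against 66.4, 73.5, 67.2 and 69.3 CPM at day 7. Pgk1, a glycolytic enzyme, averaged 49.6 ± 1.3 CPM at day 21 and 51.4 ± 2.16 CPM at day 7 (SD, n = 4 each). The days overlapped at both. Strong regions at the starts of Polr2a, the largest subunit of RNA polymerase II, Eef1a1, a translation elongation factor, and B2m, the light chain of MHC class I, fell outside the rule. Polr2a averaged 64.1 ± 2.18 CPM at day 21 and 85.6 ± 4.48 CPM at day 7 (log2 fold change −0.41 ± 0.06, edgeR adjusted p = 4.46e-07). Eef1a1 averaged 59.3 ± 1.26 CPM at day 21 and 75.4 ± 1.56 CPM at day 7 (−0.34 ± 0.06, edgeR adjusted p = 2.31e-05), and B2m 46.2 ± 1.41 CPM at day 21 and 58.4 ± 4.71 CPM at day 7 (−0.33 ± 0.07, edgeR adjusted p = 0.000227).

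Genes that define cDC1s had members at 8 of 14 measured starts (57.1%, and 61.5% of strongly open): Batf3, Id2, Zbtb46, Flt3, Cadm1, Tlr3, Naaa and Ifi205. By regions the list was near the share of all genes, with 8 of its 16 strongly open start regions members, against 48.5%. Of the list's other strongly open start regions 3 were called higher at day 21, 1 lower and 4 neither. Over all genes 5.14% of such regions were others called higher and 22.5% others called lower. Batf3, a transcription factor that cDC1s need, had 35.6, 34.6, 44.7 and 40.7 CPM at day 21, against 39.2, 43.9, 38.1 and 41.8 CPM at day 7. Its libraries overlapped and nearly filled the span the rule allows. Id2, an inhibitor of E proteins, had 62.3, 67.5, 62.7 and 65.5 CPM at day 21, against 75.6, 68.6, 69.4 and 71.5 CPM at day 7. The days did not overlap there, with day 21 lower by a log2 fold change of −0.14 ± 0.06, but the region was not called (edgeR adjusted p = 0.101). The start of Irf8, the factor that sets cDC1 identity with Batf3, was no member. It had 31.2, 33.9, 32.6 and 36.7 CPM at day 21, against 47.6, 57.5, 44.0 and 50.2 CPM at day 7, and fell by 0.56 ± 0.08 on the log2 scale (edgeR adjusted p = 6.24e-08).

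A member did lie beyond Irf8. It sat between genes, 29.8 kb from the nearest start of Irf8 (chr8:120768420-120769016), with 43.1, 44.9, 46.4 and 44.8 CPM at day 21, against 43.9, 43.1, 39.8 and 40.8 CPM at day 7. The days overlapped. An enhancer downstream of Irf8 that binds BATF3 is known to maintain the gene in cDC1s, and the tables used here do not say whether this region is that element. Of 21 strongly open regions away from starts and nearest to a cDC1 gene, within 50 kb, 6 were members (28.6%), against 26.3% of the 6955 such regions of all genes. They lay near Irf8 and Id2, in the bodies of Wdfy4 (needed for cross-presentation) and Itgae (the integrin CD103), and at 2 places in the body of Zbtb46, a transcription factor of conventional dendritic cells. The stronger Zbtb46 region averaged 47.5 ± 2.62 CPM at day 21 and 46.9 ± 1.61 CPM at day 7, and the Itgae region 45.8 ± 2.25 CPM at day 21 and 42.1 ± 2.83 CPM at day 7 (SD, n = 4 each). Of the other 15, 11 were called higher at day 21, none lower and 4 neither. Such distal regions leaned higher over all genes, where 32.1% of the 6955 were other regions called higher and 7.02% others called lower. They include a region 16.4 kb from Batf3, which averaged 63.2 ± 3.91 CPM at day 21 and 50.7 ± 2.69 CPM at day 7 (log2 fold change 0.32 ± 0.07, edgeR adjusted p = 0.000302). The cDC1 regions away from starts were looked up after the values at starts were seen.

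Other lists of dendritic cell function differed at starts. Dendritic cell maturation and migration genes had members at 6 of 24 starts (25.0%, and 42.9% of strongly open): Cd80, Cd86, Cd83, Cd274, Il12b and Nfkb2. The region at Nfkb2, a subunit of NF-κB, averaged 91.9 ± 7.23 CPM at day 21 and 93.0 ± 2.72 CPM at day 7, and that at an end of Cd83, a surface marker of mature dendritic cells, 46.5 ± 2.19 CPM at day 21 and 46.6 ± 1.32 CPM at day 7 (SD, n = 4 each). MHC class I presentation genes had members at 10 of 20 (50.0% and 50.0%), among them H2-K1, H2-D1, Tap1 and Tapbp. A region shared by Psme2, an activator of the proteasome, and Rnf31 was the strongest at 135 CPM with a ratio of 1.08. MHC class II presentation genes had members at 4 of 17 (23.5% and 26.7%), namely Cd74, H2-Ab1, Rfx5 and Rfxap. At an end of Cd74, whose product escorts MHC class II molecules, the member had 132, 131, 120 and 123 CPM at day 21, against 105, 111, 110 and 110 CPM at day 7. These did not overlap, with a log2 fold change of 0.22 ± 0.05. A region at the other end, shared with Tcof1 and no member, averaged 288 ± 34.4 CPM at day 21 and 86.0 ± 6.43 CPM at day 7 (SD, n = 4 each; log2 fold change 1.75 ± 0.06, edgeR adjusted p = 6.81e-35). Another strongly open region, 987 bp from an end of Cd74, went the other way, at 12.3 ± 2.44 CPM at day 21 and 22.1 ± 3.25 CPM at day 7 (−0.84 ± 0.11, edgeR adjusted p = 5.43e-08). Interferon-stimulated genes had members at 7 of 26 (26.9% and 43.8%), including Stat2, Ifih1 and Irf9, and of 19 measured chemokine genes 1 had one, Cxcl16, at a region shared with Zmynd15.

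Markers of other cells had few members at starts. At starts of 8 T and NK cell markers, 8 macrophage markers, 5 B cell markers, 5 neutrophil markers and 6 stromal markers there was none. The median of the strongest start region was 36.8 CPM over 16 cDC1 genes, with 13 at 15 CPM or more. It was 0.467 CPM for T and NK cell markers, 4.60 CPM for macrophage markers (1 at 15 CPM or more), 1.49 CPM for stromal markers and 0 CPM for B cell and neutrophil markers, of which 3 of 5 each had no region at a start. Of the melanoma markers, at a median of 3.5 CPM, Pmel and Mitf had members; the Pmel region (119 CPM) is shared with Rab5b, a regulator of endosomes, and Mitf is known also from myeloid cells such as osteoclasts. Away from starts, members lay nearest to 2 macrophage markers (3 of 6 strongly open regions, Adgre1 and Csf1r), to the neutrophil marker Csf3r (2 of 2), to the stromal markers Cdh5 and Pecam1 (2 of 3) and to Dct and Mitf (2 of 3). Of the 4 strongly open regions nearest to 3 T and NK cell markers, 1 was a member, near the NK cell marker Klrb1c. Of such regions of all genes 26.3% were members. What other cells contribute to these regions was not tested. The Mitf start region averaged 46.3 ± 1.75 CPM at day 21 and 40.4 ± 2.73 CPM at day 7 (SD, n = 4 each).

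Immediate early genes, which answer stimuli within minutes, had members at 17 of 29 starts (58.6%, and 63.0% of strongly open), among them Fos, Fosb, Junb, Jund, Egr1, Ier2, Klf2, Klf6 and Dusp1. Their start regions were strong, at a median of 63.4 CPM, and 68.2% of all strongly open regions at 50 to 100 CPM were members. By regions the list was near the share of all genes in both places: 17 of its 36 strongly open start regions were members, against 48.5% over all genes, and 21 of its 89 distal ones within 50 kb (23.6%), against 26.3%. Of those 89, 50 others were called higher and 6 lower at day 21, beside 32.1% and 7.02% of all strongly open distal regions. Fos, a subunit of AP-1, shows the contrast. Its start region had 79.7, 79.1, 77.8 and 76.3 CPM at day 21, against 65.5, 66.1, 70.5 and 69.7 CPM at day 7. The days did not overlap, but the log2 fold change was only 0.20 ± 0.06. A region 3.36 kb away had 121, 128, 131 and 108 CPM at day 21, against 32.0, 35.9, 35.4 and 45.6 CPM at day 7, a log2 fold change of 1.70 ± 0.07 (edgeR adjusted p = 3.78e-29).

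**Figure D4:**
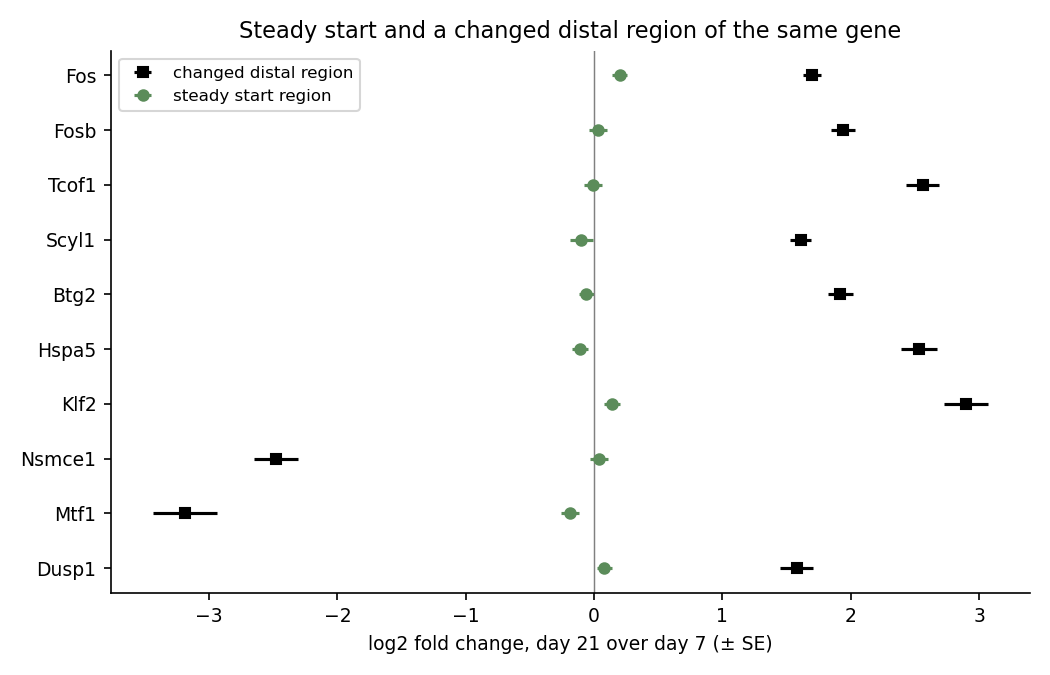
Log2 fold change of day 21 over day 7 (± SE) for the steady start region (circles) and the most clearly changed distal region (squares) of 10 genes. The start regions lie between −0.19 and 0.20, as the rule requires, and the distal regions reach 2.90 near Klf2 and −3.19 near Mtf1.

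Other genes, some of the same list and some not, gave like pairs. Klf2, of the list and a transcription factor of the Krüppel family, had 107, 114, 104 and 109 CPM at its start at day 21, against 97.8, 97.2, 96.9 and 103 CPM at day 7. A region 5.21 kb away had 16.5, 38.2, 30.3 and 26.3 CPM at day 21, against 4.88, 2.22, 2.34 and 5.04 CPM at day 7 (log2 fold change 2.90 ± 0.17, edgeR adjusted p = 8.93e-22). The days did not overlap in either, but the start region was not called (edgeR adjusted p = 0.0599). Day 21 replicate 1 was the lowest of its day in the distal region. At Hspa5, the chaperone BiP of the endoplasmic reticulum, the start averaged 104 ± 2.61 CPM at day 21 and 112 ± 4.67 CPM at day 7 (SD, n = 4 each). A region 5.57 kb away averaged 31.6 ± 7.74 CPM at day 21 and 5.39 ± 1.5 CPM at day 7 (2.53 ± 0.14, edgeR adjusted p = 4.32e-23). The reverse was seen at Nsmce1, a subunit of the SMC5/6 complex, whose start averaged 37.3 ± 1.32 CPM at day 21 and 36.4 ± 0.612 CPM at day 7 and whose region 5.26 kb away averaged 2.50 ± 0.717 CPM at day 21 and 13.6 ± 1.34 CPM at day 7 (SD, n = 4 each; −2.48 ± 0.17, edgeR adjusted p = 2.24e-18). Dusp1, a phosphatase that shuts off MAP kinases, and Fosb had distal log2 fold changes of 1.58 ± 0.13 and 1.94 ± 0.09 beside start regions at 0.08 ± 0.06 and 0.03 ± 0.07.

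Counted over all genes, a steady start did not go with quieter surroundings. Distal regions were those outside every start window, within 50 kb of their nearest start and not members. Of all 71577 tested ones, 10.4% were higher and 8.29% lower at day 21. Near genes with a steady start 2482 of 21330 were higher and 1694 lower at day 21, so 19.6% were called, against 18.7% of all such regions. Among changes of at least 2-fold the balance was the other way, with 342 higher and 730 lower, while most of the named pairs were higher. The same lean was seen near the other genes. There were 256 higher and 758 lower near a strongly open start that was not steady. Near a weaker start region there were 307 higher and 855 lower, and near genes with none 267 higher and 413 lower. Near genes with a strongly open start that was not steady, 19.4% of 19503 were called. The shares were 17.8% near genes with a weaker start region and 17.2% near genes with none. At least 1 called distal region lay near 52.0% of the 3724 genes with a steady start and any tested distal region, and near 50.6% of the 3438 genes with a strongly open start that was not steady. These shares are given without a test over genes.

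Several members sometimes served 1 gene. At 199 genes at least 2 lay at starts, and at 6 there were 3: Atxn7l1, Dennd4b, Fbl (the nucleolar methyltransferase fibrillarin), Hnrnpf (a splicing regulator), Ing1 (a reader of histone methylation) and Rab43 (a GTPase of membrane traffic). Counted over the whole gene, Etv6, an ETS-family repressor of blood cell development, stood out with 10 members among 19 strongly open and 73 regions in 234 kb. Atxn7l1 had 8 members among 10 strongly open regions in 229 kb, and Kdm6b, a demethylase that removes methyl marks from histone H3, had 5 among 6 in 21.9 kb. Long genes hold more regions of every kind, and these counts are not scaled for length.

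Promoters under members were rich in CpG. The RefSeq table has 21263 promoters of 17492 protein-coding genes, of which 4121 (3594 genes) lay under a member. Their median content of G and C was 63.0%, and CpG pairs stood at 0.827 of the number their base content predicts. With a ratio of 0.6 as the limit, 85.6% were at or above it, against 47.7% of all promoters and 14% of those without a region. Strongly open promoters called lower at day 21 were alike (63.7% and 0.846, with 89.1% at the limit or above), and those called higher less so (60% and 0.703, with 63.5%).

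14 motifs were searched on both strands of these 300 bases. The GC box GGGCGG was in 72.8% of promoters under members, against 46.2% of all promoters. The TATA box TATAAA was in 4.66%, against 12.6% of all. CCGGAA was in 35.3%, against 18.7%, and CCAAT in 43.6%, against 38.2%. The other shares, for promoters under members and then all promoters, were 15.2% and 8.49% for TGACGT (CRE core), 3.69% and 2.23% for TGACGTCA, which also counts as TGACGT, 11.2% and 7.84% for CACGTG, 2.35% and 1.21% for the YY1 motif, 1.84% and 0.673% for the ZBTB33 palindrome, 1.02% and 0.423% for the ZNF143 motif, 3.37% and 3.13% for GAGGAAGT (PU.1), 3.86% and 6.99% for TGANTCA (AP-1), 2.48% and 3.35% for an interferon response motif and 1.53% and 1.33% for the NRF1 palindrome. Motifs can share bases, as GGGCGG and the reverse of CCAAT do in the Sp1 promoter printed above. Most of these shares were not particular to members. Other strongly open promoters called lower at day 21 had GGGCGG in 74.3%, CCGGAA in 34.9%, CCAAT in 42.2% and TATAAA in 5.35%, but the NRF1 palindrome in 6.16%. Those not called had GGGCGG in 66.5%, CCGGAA in 32.6%, CCAAT in 34.6% and TATAAA in 5.95%. Promoters without a region, part of all promoters, had GGGCGG in 20.5% and TATAAA in 20.5%. Promoters called higher at day 21 differed from members in these shares, with GGGCGG in 53.8% and TATAAA in 9.24%. A match says only that the letters are there.

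**Figure D5:**
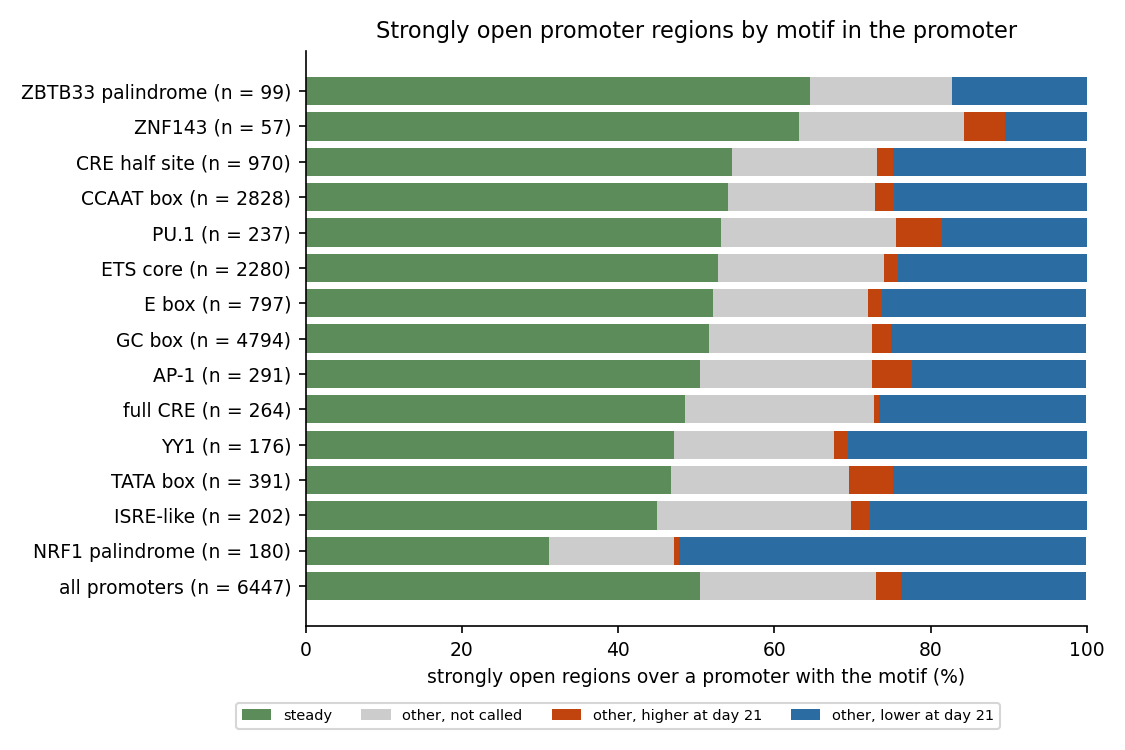
Strongly open regions over at least 1 promoter that holds a motif, split into members, other regions not called, and other regions called higher or lower at day 21 (horizontal axis, % of the n regions given). Members are 50.5% of all 6447 regions over promoters (bottom bar), 64.6% of those with the ZBTB33 motif and 31.1% of those with the NRF1 palindrome, most of the rest of which are called lower.

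Between strongly open promoters, 1 motif stood apart from the other 13. Of 6447 strongly open regions over a promoter, 50.5% were members and 23.7% were other regions called lower at day 21. For the other 13 motifs the members' share lay between 45.0% (interferon response) and 64.6% (ZBTB33, 64 of 99), with ZNF143 at 63.2% (36 of 57) and TATAAA at 46.8%; the core TGACGT had 54.6%. Where a promoter held the NRF1 palindrome, 56 of 180 regions (31.1%) were members, 94 (52.2%) were called lower and 1 was called higher. Their median level, 35.2 CPM, was near the 35.9 CPM of all promoter regions, and 94.4% of them had a log2 fold change below 0, against 77.5% of all. At promoters of at least 60% G or C the members' share was 32.3% with the palindrome and 51.9% of all, and under 60% it was 25.8% with it and 48.4% of all. At 30 CPM or more it was 41.2% with the palindrome and 63.0% of all, and under 30 CPM 17.9% with it and 30.0% of all. The Etfdh, Slx4ip and Ran promoters printed above are examples from both sides. The start region of Nrf1 itself averaged 34.1 ± 2.70 CPM at day 21 and 38.0 ± 3.52 CPM at day 7 (SD, n = 4 each) and missed the ratio limit at 1.32.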

How the data were processed

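ATAC-seq was measured in cDC1s sorted from B16-OVA tumours, in 4 libraries at day 21 and 4 at day 7, grouped by the labels. The authors deposited 1 table of raw counts per region and library for 128057 regions. Per the submitters' processing notes the tools included MACS2 2.1.0.20150603, bedtools, SAMtools, Picard 1.65 and cutadapt 1.9, and the build was mm10; the aligner, the filters, the rule that merged peaks, whether reads or fragments were counted and the counting base of the coordinates are not given in the sources used here. Width is end minus start.

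CPM was each count scaled by its library's total in this table, which ran from 9440223 to 27737040 counts, and the limits of 15 CPM and 1.3 were applied to it. These totals limit the precision of weak regions, and counting error covers only part of the spread if each count is taken as independent. Day 21 was tested against day 7 over all regions with edgeR 4.0.16 (limma 3.58.1, R 4.3.3), by the quasi-likelihood test with the default filter on low counts, TMM scaling and Benjamini-Hochberg adjustment, calling an adjusted p under 0.05. The common biological coefficient of variation was 0.133. The fit was tested on simulated data. DESeq2 1.42.0, other scalings, filters, limits, windows, thinning, a replicate block and leaving out each library were the alternatives. Intervals are Wilson 95%, taken over regions and not over libraries.

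Genes and promoters came from RefSeq tables of GRCm38.p6. Of 21900 protein-coding genes 17492 have a start and strand there; for the others both annotated ends were used. An overlap of 1 bp with a window counted, and a promoter took the class of the strongest region over it. Tables were made with pandas 2.3.3, NumPy 2.4.6 and SciPy 1.17.1 and figures with matplotlib 3.10.9. No genome was used, so sequence outside promoters is not analysed here.

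Named regions are the 10 strongest members at starts and outside them, the 10 with the lowest ratio, the 5 widest and narrowest, those next to each limit, a fixed set of genes, the 2 strongest members of each of 29 gene lists, and the 10 changed distal regions with the smallest p near steady starts; 1 region that this rule names is not reported here. Pnrc1, Ppef2, Etfdh, Slx4ip, Ran, Mitf, Pmel, Mdc1, Ssb and the regions near cDC1 genes were chosen after their values were seen. The members, the lists and this rule were chosen with earlier results of these data known.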

Additional observations from a re-analysis of the deposited data

Results flagged for a closer look

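In 8 of 98 groups of 4 libraries checked, 1 library stood far from the other 3; chance gives about 1 in 20 such groups. Day 21 had 2 of them: a high value of 60.4 CPM in the body of Nfkbiz and a low one of 43.6 CPM in the stronger region in the body of Zbtb46. Day 7 had low values at Letm2 (68.2 CPM) and Cd74 (105 CPM). It had high values at the starts of Pgk1 (54.7 CPM), Klf2 (103 CPM) and Dusp1 (75.3 CPM) and at the region shared by Psme2 and Rnf31 (142 CPM). All of these are members, so the library that stood apart still lay within the ratio limit.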

How the results depend on the processing

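The number of members followed the ratio limit, with 2306 at 1.2 and 13254 at 1.5, and was 6910 to 8142 when 1 library was left out. The share at a start, 63.2%, was 58.5% and 68.4% with minimum means of 10 and 20 CPM, 71.2% and 54.3% with ratio limits of 1.2 and 1.5, 61.1% and 65.7% with windows of 500 and 2000 bp, 61.6% by region centre, 58.4% with both ends of every gene, and 53.5% with starts of known strand alone (chosen after seeing the data). Without 1 library it was 59.4 to 63.3%. The median width, 862 bp, was 820 and 901 bp at 10 and 20 CPM, 914 and 800 bp at ratio limits of 1.2 and 1.5, 877 bp after thinning and 840 to 860 bp without 1 library. Members called between the days numbered 233 to 601 without 1 library, all tested regions called 18895 to 23106, and called distal regions near steady starts 3363 to 4111; the last count was 2667 within 20 kb. DESeq2 called 21427 regions, 452 members among them. Replicate numbers did not pair the libraries: same-numbered libraries correlated at 0.004 to 0.010 in their deviations from the day means. With a replicate block 23275 regions were called, 679 of them members, and 4055 distal regions. No fold change changed sign among the regions outside the members refitted under these alternatives; fold changes of single members were not refitted. The shallowest library, at 9440223 counts, limits how small a spread can be seen in weak members.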

Other observations

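Members were rarer away from starts for all genes, at 26.3% of strongly open regions against 48.5% at starts, and the lists varied around that. Among strongly open regions within 50 kb of their nearest start, 27 of 62 near chromatin regulators (43.5%) were members; these lay near 16 genes, among them Kdm6b, Tet2, Dnmt3a and Chd7, which modify histones, DNA or nucleosomes. Near respiratory chain genes 8 of 14 were members. Near MHC class II presentation genes 4 of 23 (17.4%) were members, while 15 were called higher and none lower at day 21, beside 32.1% and 7.02% of the 6955 near all genes. Near dendritic cell maturation and migration genes 5 of 40 (12.5%) were members, near Ccl17, Cd83, Il12b and Traf1, while 11 were called higher and 5 lower. None of 12 near autophagy genes was a member. These are counts of few regions, given without a test.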
